A study of Homo sapiens with 80 samples.

Results

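The 10 genes described here are BMP2, BMP4, BMP5 and BMP7, which encode ligands of the bone morphogenetic protein (BMP) pathway, ID1, ID2, ID3 and ID4, which are transcribed in response to it, and BAMBI and BMPER, which act on it as inhibitors or modulators. They were taken by symbol from the deposited TPM tables of 2 experiments on cardiomyocyte differentiation, each listing 43388 genes. All 10 passed the filters on low values in both experiments. Human pluripotent stem cells received 6 to 12 µM CHIR99021, which activates WNT signalling, on day 0 and 5 µM IWP2, which blocks WNT secretion, on day 2 or 3. The medium held B27 without insulin at first and with insulin later. Purity, high or low, is the submitters' class for the share of cells with cardiac troponin T at the end, on day 16. No BMP ligand or BMP inhibitor is named among the added agents in the labels.

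In the first experiment, called multi-omic in the labels, 25 high purity and 31 low purity libraries of poly(A) RNA came from wells of the induced pluripotent line WTC11. All high purity wells came from a single differentiation at passage 52 and all low purity wells from a single differentiation at passage 69, so purity cannot be told apart from passage or differentiation. P-values there measure the spread between wells. Days 0, 2, 4 and 6 had 4 wells in each class. There were then 3 high and 4 low purity wells on day 8, 1 and 4 on day 10, 2 and 4 on day 13, and 3 and 3 on day 16. The second experiment, called RNA-only, had 24 libraries of total RNA from 3 lines: the induced pluripotent lines WTC11 and IMR90-4 and the embryonic line H9. Every line contributed a differentiation of each class, with 1 library at each of 4 stages: day 0 (stage 1), day 2 or 3 (stage 2), day 4 or 5 (stage 3) and day 6 or 7 (stage 4). The stages were days 0, 2, 4 and 6 in WTC11 and days 0, 3, 5 and 7 in H9 and IMR90-4. The passages, high before low purity, were 58 and 55 for H9, 55 and 75 for IMR90-4, and 81 and 69 for WTC11. In the deposited multi-omic tables the count and TPM columns of the same name hold different libraries. TPM and its names were used, since the library nearest to a given one was of the same group for 54 of 55 by TPM and for 28 of 55 by counts. Under the count table's names 6 pairs of member and day were called between high and low purity in place of 27, with 2 higher in high and 4 higher in low purity in place of 18 and 9. Reads per library ranged from 6579715 to 18143597 in the multi-omic experiment and from 17990882 to 40357968 in the RNA-only experiment. High purity wells were sequenced more deeply on average than low purity wells from day 0 to day 8. In bulk RNA, fewer cells of a type and less RNA per cell cannot be told apart.

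BMP ligands are secreted dimers that bind type I and type II receptor kinases, which phosphorylate SMAD1, SMAD5 and SMAD9. These SMADs enter the nucleus with SMAD4 and raise transcription of the ID genes, whose proteins lack a DNA-binding region and hold basic helix-loop-helix factors off DNA. BAMBI is a membrane protein that resembles a receptor without its kinase, BMPER is a secreted protein that binds BMPs, and both are part of feedback on the pathway. In the embryo, BMP signals from neighbouring tissue take part in the induction of cardiac mesoderm, and BMP2 and BMP4 act later in the making of valves and the outflow tract.

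The promoters of the 4 ID genes and of BAMBI are shown first, because these are the members whose transcription is known to answer BMP-activated SMADs. The RefSeq table for GRCh38.p14 held 11 promoter sequences of 8 members, each with 250 bases before and 50 after an annotated start; BMP2 and BMP7 were not matched. The windows lie at chr20:31605039-31605338 on the plus strand for ID1, chr2:8681806-8682105 on the plus strand for ID2, chr1:23559452-23559751 on the minus strand for ID3, chr6:19837120-19837419 on the plus strand for ID4 and chr10:28677271-28677570 on the plus strand for BAMBI. Capitals mark GGCGCC, a GC-rich word known from BMP-responsive elements, GTCTG or its reverse complement CAGAC, which holds the core of the SMAD-binding element, and TATAAA on either strand, the TATA box word.
ID1: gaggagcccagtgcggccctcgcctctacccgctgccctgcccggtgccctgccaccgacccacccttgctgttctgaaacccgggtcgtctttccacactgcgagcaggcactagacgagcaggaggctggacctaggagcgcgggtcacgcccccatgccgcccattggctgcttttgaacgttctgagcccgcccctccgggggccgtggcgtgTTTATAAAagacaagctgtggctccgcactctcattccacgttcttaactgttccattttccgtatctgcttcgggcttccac
ID2: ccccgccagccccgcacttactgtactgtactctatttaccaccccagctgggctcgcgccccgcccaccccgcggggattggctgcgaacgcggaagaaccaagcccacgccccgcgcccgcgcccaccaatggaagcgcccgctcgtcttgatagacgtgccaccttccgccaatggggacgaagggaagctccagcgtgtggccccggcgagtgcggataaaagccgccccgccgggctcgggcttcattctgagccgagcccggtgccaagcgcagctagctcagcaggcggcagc
ID3: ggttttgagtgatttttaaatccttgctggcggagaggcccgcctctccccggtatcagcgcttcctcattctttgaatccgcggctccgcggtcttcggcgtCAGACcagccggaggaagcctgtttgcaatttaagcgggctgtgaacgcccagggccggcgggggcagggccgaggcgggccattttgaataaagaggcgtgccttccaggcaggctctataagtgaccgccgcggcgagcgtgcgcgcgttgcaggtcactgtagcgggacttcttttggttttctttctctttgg
ID4: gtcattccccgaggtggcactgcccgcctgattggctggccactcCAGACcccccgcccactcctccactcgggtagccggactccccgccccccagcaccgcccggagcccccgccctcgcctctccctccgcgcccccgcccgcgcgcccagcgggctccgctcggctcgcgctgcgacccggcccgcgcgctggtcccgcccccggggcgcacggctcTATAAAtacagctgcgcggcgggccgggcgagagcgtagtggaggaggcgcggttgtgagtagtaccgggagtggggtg
BAMBI: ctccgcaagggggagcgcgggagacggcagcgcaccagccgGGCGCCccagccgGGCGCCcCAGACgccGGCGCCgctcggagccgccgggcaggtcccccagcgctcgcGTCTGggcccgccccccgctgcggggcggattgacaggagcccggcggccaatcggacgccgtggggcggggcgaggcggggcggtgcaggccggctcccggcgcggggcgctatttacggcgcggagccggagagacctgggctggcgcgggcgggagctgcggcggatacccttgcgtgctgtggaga
GGCGCC was found 3 times in the BAMBI window and in none of the 4 ID windows, and 19.2% of all 35116 promoters in RefSeq's table held it. Among the windows not printed, both of BMPER held it (1 and 2 matches), as did the BMP4 window at chr14:53955001-53955300 (2 matches). The remaining BMP4 windows and the BMP5 window did not. GTCTG or CAGAC was found 2 times in BAMBI and once each in ID3 and ID4, against 45.3% of all promoters with at least 1 match. TATAAA was found in ID1, where 2 matches overlap, and in ID4, against 11.5% of all promoters. None of these words was in the ID2 window, which says only that these letters are not in these 300 bases. All 10 genes are annotated as protein-coding in RefSeq, and the tables count reads per gene, not per transcript. Antisense genes overlap BMP7, ID2 and ID4 in GENCODE v29; the library kits mark strand, but whether the counting used it is not given in the sources used here. Reads of these genes and of their antisense partners therefore may not be separated, and the partners BMP7-AS1 and ID2-AS1 reached at most 18.9 and 18.1 TPM in any well.

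Levels are given as TPM, transcript abundance corrected for gene length and library size, as mean ± SD over wells. A fold change is on the log2(TPM + 1) scale after TMM scaling between libraries, with its standard error (SE). A member was called where limma gave a Benjamini-Hochberg adjusted p under 0.05 over all 25664 genes tested and a log2 fold change of at least 1 in either direction. Between high and low purity wells, 27 of 70 pairs of member and day were called, 18 of them with high purity above low and 9 the other way. On day 0, 0 members were called, against 1.07% of all genes. In limma 4 members were under an unadjusted p of 0.05 that day, and so were 6591 of all 25664 genes. The tools edgeR and DESeq2, run on the reads behind the TPM, each called 1 member (BMP4, higher in low purity). Over all genes they called 643 of 24223 and 655 of 21659. Day 2 had 3 called members, against 5.32% of all genes, and day 4 had 4, against 7.84%. Days 6 and 8 had 6 each, against 8.8% and 12.2% of all genes. Day 13 had 5 (10.8% of all genes) and day 16 had 3 (13.4%). The median log2 fold change of the members went from -0.15 on day 2 and 0.06 on day 4 to 0.69 and 1.14 on days 6 and 8. It was 0.58 on day 13 and 0.37 on day 16, and that of all genes lay between -0.03 and 0.00 throughout. Without TMM scaling the median of all genes was -0.18, -0.13 and -0.12 on days 8, 13 and 16, so ratios of mean TPM, high over low purity, lie below the scaled fold changes on those days.

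**Figure D1:**
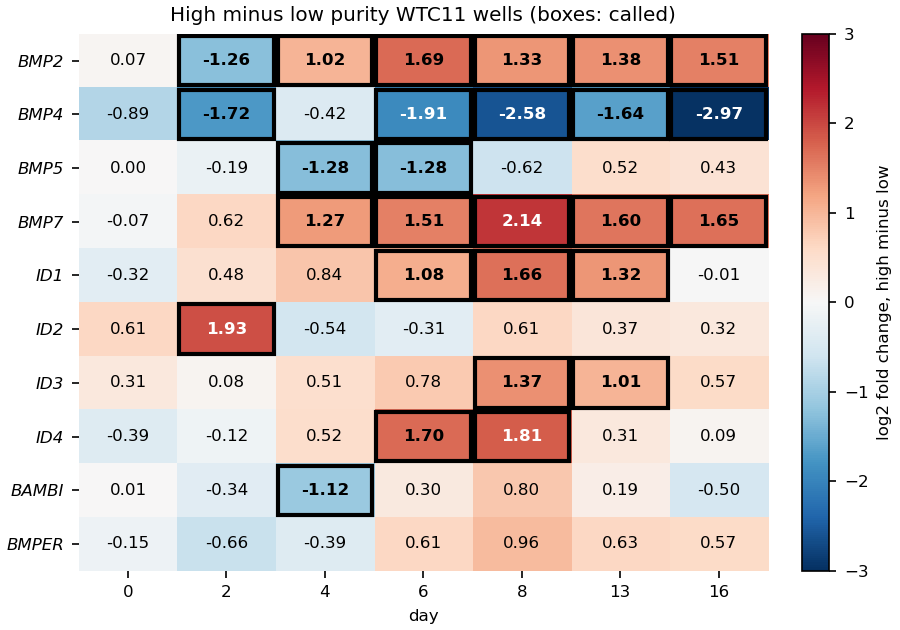
Log2 fold change of high minus low purity WTC11 wells (TMM-scaled log2(TPM + 1), limma) for the 10 members (rows) on the 7 days tested (columns); red is higher in high purity, blue higher in low purity, and a box marks a called member. BMP2 changes colour after day 2, BMP4 is blue on all 7 days, and the ID genes are boxed in red between day 6 and day 13, apart from ID2, whose only box is on day 2.

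BMP4, a ligand made by early mesoderm and later by several cardiac tissues, was the member that differed most between the differentiations at the end. Its transcript was near the bottom of the range on day 0, at 1.32 ± 0.225 TPM in high purity (n = 4) and 3.2 ± 1.01 TPM in low purity (n = 4). By day 2 the 4 high purity wells held 14.5, 16.6, 24.1 and 26.1 TPM, and the 4 low purity wells 62.6, 68.7, 75.4 and 75.8 TPM. The groups did not overlap, at a log2 fold change of -1.72 (SE 0.15, limma adjusted p = 4.23e-13). Day 4 had means of 173 ± 11.7 and 233 ± 10.7 TPM (n = 4 each), and the difference was not called (log2 fold change -0.42).

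After day 4 BMP4 fell in high purity wells, while no later step in low purity wells was called. In high purity it fell to 78.8 ± 9.24 TPM on day 6 (log2 fold change -1.21 from day 4, limma adjusted p = 3.04e-09) and to 20.3 ± 2.22 TPM on day 8 (-1.66 from day 6, adjusted p = 1.06e-11). In low purity the mean was 297 ± 42.6 TPM on day 6 and 148 ± 13.8 TPM on day 8, a log2 fold change of -1.00 just under the threshold (limma adjusted p = 6.16e-07). The single high purity library of day 10 had 29.4 TPM, below the 121 to 144 TPM of the 4 low purity wells. On day 16 the high purity wells held 9.76, 10.7 and 11.3 TPM and the low purity wells 91.4, 108 and 111 TPM. By mean TPM, low purity wells had 9.78 times as much BMP4, with a log2 fold change of -2.97 (SE 0.17, limma adjusted p = 3.06e-19). Every low purity well was above every high purity well on all 7 days tested.

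BMP2, a close relative of BMP4 that signals through the same receptors, started with it and then went the other way. Its day 0 means were 2.46 ± 0.543 and 2.25 ± 0.749 TPM in high and low purity (n = 4 each), and the wells overlapped. On day 2 the high purity wells held 26.0, 32.1, 43.7 and 44.9 TPM and the low purity wells 84.8, 87.3, 93.4 and 99.3 TPM. Low purity was the higher class, without overlap (log2 fold change -1.26, SE 0.16, limma adjusted p = 1.65e-08). On day 4 the order was the opposite, with 304, 315, 336 and 349 TPM in high against 154, 155, 163 and 172 TPM in low purity (log2 fold change 1.02, adjusted p = 1.11e-06). That call rests on a value at the threshold: without low purity well 1 or well 3 of day 4, the log2 fold change was 0.99 in each case.

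The excess of BMP2 in high purity wells was called on each later day tested. On day 6 it measured 295 ± 29.2 against 92.8 ± 28 TPM (log2 fold change 1.69, n = 4 each). On day 8 it was 293 ± 24 (n = 3) against 137 ± 25.3 TPM (n = 4, log2 fold change 1.33). By day 16 levels were lower in both, at 192 ± 14.1 against 78.2 ± 3.72 TPM (log2 fold change 1.51, n = 3 each). On day 10 the single high purity library had 244 TPM, and the 4 low purity wells 93.2 to 119 TPM. From day 4 on, BMP2 had the higher mean TPM of the pair in high purity on every day sampled, and BMP4 in low purity. The low purity means were close on day 8, at 137 ± 25.3 for BMP2 and 148 ± 13.8 TPM for BMP4. On day 16 the mean TPM was 192 for BMP2 and 10.6 for BMP4 in high purity, and 78.2 and 103 in low purity.

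BMP7, which can pair with BMP2 or BMP4 in heterodimers, was higher in high purity from day 4 to day 16. It was at 5.08 ± 1.06 and 5.11 ± 0.927 TPM on day 0. Both differentiations had more on day 2, with 27.6 ± 2.73 and 18.5 ± 1.11 TPM (log2 fold change from day 0 2.23 and 1.54, both called). In low purity wells it then fell to 7.65 ± 1.04 TPM on day 4 (log2 fold change -1.22), while the high purity mean was 19.8 ± 1.55 TPM. By day 8 the high purity wells held 81.1, 82.5 and 104 TPM and the low purity wells 16.2, 18.5, 29.6 and 30.0 TPM. The groups did not overlap (log2 fold change 2.14, SE 0.25, limma adjusted p = 7.18e-10). On day 16 the means were 93.9 ± 5.86 and 35.1 ± 9.88 TPM (n = 3 each, log2 fold change 1.65).

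BMP5 was not detected on day 0, with 0 reads in all 8 wells. With 3 reads per well as the limit that a count of 0 allows (counting error only), that is up to 0.0742 TPM in a high purity and 0.122 TPM in a low purity well. By day 2 its means were 4.34 ± 0.52 and 5.3 ± 0.0889 TPM in high and low purity, at least 70.9-fold and 52.7-fold higher than those limits averaged over the wells. On day 4 the high purity wells held 31.4, 37.1, 50.9 and 55.9 TPM and the low purity wells 93.4, 109, 109.5 and 113 TPM (log2 fold change -1.28, SE 0.10, limma adjusted p = 6.48e-14). Day 6 gave the same log2 fold change of -1.28, with 31.9 ± 5.63 and 77.2 ± 4.01 TPM. The difference was not called on day 8 (44.5 ± 3.65 against 81 ± 5.91 TPM). By day 13 the order of the means was the opposite, at 80.1 ± 3.84 (n = 2) and 63.6 ± 6.57 TPM (n = 4), also without a call. BMP5 was the ligand whose wells overlapped in unscaled TPM at the end. On day 16 they lay between 69.3 and 80.3 TPM in high and 55.8 and 74.5 TPM in low purity. TMM-scaled values still put high purity higher that day, by 0.43 on the log2 scale (adjusted p = 0.00309 in limma). That is below the fold threshold, so it was not called.

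**Figure D2:**
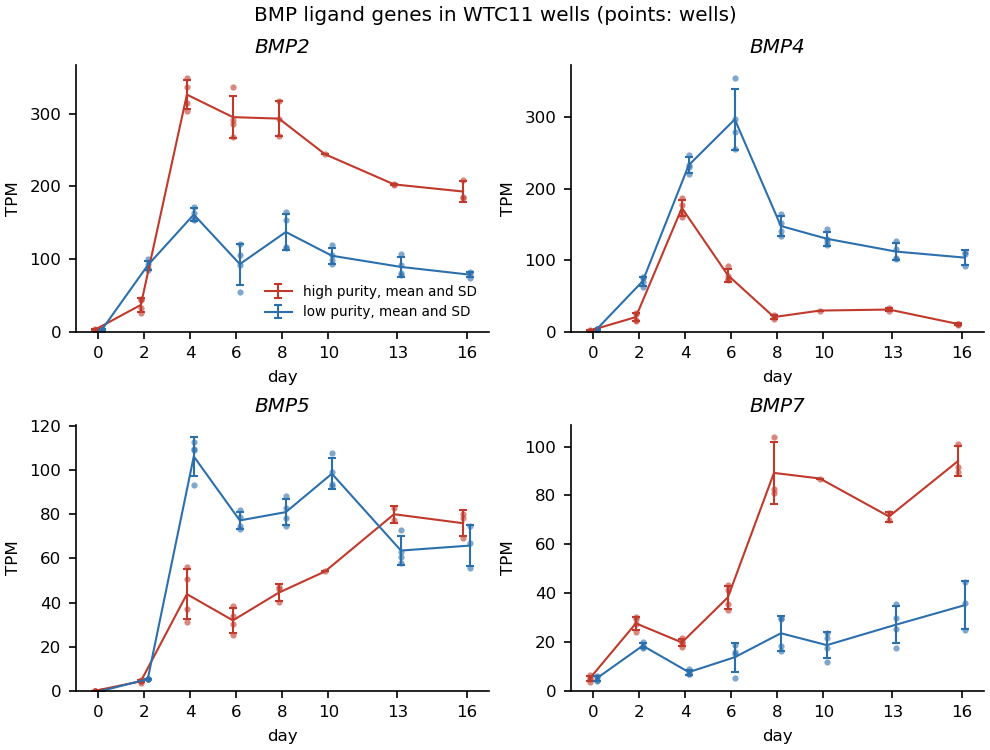
TPM of the 4 BMP ligand genes (vertical axes, linear) by day (horizontal axes) in high purity (red) and low purity (blue) WTC11 wells; points are wells, and lines join the means with SD bars (the single high purity library of day 10 has none). BMP2 and BMP7 end higher in red, at 192 and 93.9 TPM on day 16, and BMP4 ends higher in blue, at 103 TPM.

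The ID genes did not share a time course. ID1 fell between day 0 and day 2 in both differentiations. It fell from 29.1 ± 3.56 to 11.2 ± 2.41 TPM in high purity (log2 fold change -1.35) and from 34.9 ± 2 to 8.09 ± 1.47 TPM in low purity (-2.15). It then rose by day 4 to 126 ± 15.6 and 69.9 ± 2.58 TPM (log2 fold changes 3.29 and 2.92), and all 4 steps were called by limma. On day 8 the high purity wells held 79.4, 115 and 131 TPM and the low purity wells 31.4, 39.8, 41.2 and 43.8 TPM. The wells did not overlap, and high purity was higher by 1.66 on the log2 scale (SE 0.18, limma adjusted p = 1.74e-10). It was called on day 6 (1.08) and day 13 (1.32) as well, though the day 6 value dropped to 0.98 without high purity well 2. On day 16 the high purity wells held 19.1, 25.3 and 29.1 TPM and the low purity wells 20.8, 28.7 and 37.8 TPM. The groups overlapped (log2 fold change -0.01). From day 8 to day 16 ID1 fell in high purity (log2 fold change -1.89, adjusted p = 3.44e-11), and in low purity the change of -0.22 was not called.

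ID2, known in the heart for a part in the conduction system, was the most abundant of the ID genes from day 4 on in both differentiations by mean TPM. On day 2 the high purity wells held 104, 110.4, 118 and 121 TPM and the low purity wells 22.3, 28.4, 35.4 and 38.2 TPM. The difference of 1.93 (SE 0.10) on the log2 scale was the largest of any member on that day (limma adjusted p = 5.40e-19). Every high purity well was also above every low purity well on day 0 (31.8 ± 2.06 against 19.9 ± 4.03 TPM, log2 fold change 0.61, not called). From day 2 to day 4 ID2 rose in both, by 1.34 in high purity and by 3.81 in low purity on the log2 scale. On day 4 the low purity wells were then the higher ones, at 419 to 499.8 TPM against 292 to 344 TPM, without overlap but below the threshold (log2 fold change -0.54). The change from day 0 differed between the differentiations on both days, by 1.32 (SE 0.15, adjusted p = 5.02e-09) on day 2 and by -1.15 (SE 0.15, adjusted p = 3.27e-08) on day 4. On day 16 the wells overlapped in unscaled TPM, at 248 ± 31.7 and 231 ± 20.1 TPM. Scaled ID2 was higher in high purity by 0.32 on the log2 scale (adjusted p = 0.0284 in limma), too little for a call.

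ID3 was the member with the highest level on day 0, at means of 68.7 ± 3.75 and 53 ± 6.7 TPM in high and low purity, and no step up to day 8 was called in either differentiation. On day 8 the high purity wells held 96.1, 129 and 139 TPM and the low purity wells 47.4, 52.2, 57.9 and 59.1 TPM (log2 fold change 1.37, SE 0.16, limma adjusted p = 1.32e-09). The day 13 difference, 57 ± 1.52 (n = 2) against 32.4 ± 7.15 TPM (n = 4), was called at a log2 fold change of 1.01 and is at the threshold. It was 0.82 without TMM scaling, 0.98 without high purity well 3 and 0.84 without low purity well 1 of that day. On day 16 the wells overlapped in unscaled TPM, at 30.3 ± 2.26 and 23.8 ± 5.3 TPM (n = 3 each). Scaled ID3 was higher in high purity by 0.57 on the log2 scale (adjusted p = 0.00536 in limma), again too little for a call.

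ID4 was low until day 2, at 4.45 ± 1.21 and 5.05 ± 0.583 TPM, and rose by day 4 in both, to 115 ± 6.31 and 80.1 ± 3.01 TPM (log2 fold changes 4.33 and 3.69). It then rose again in high purity, to wells of 277, 284, 288 and 331 TPM on day 6, while the low purity wells held 57.1, 96.3, 104 and 109.6 TPM. There was no overlap, at a log2 fold change of 1.70 (SE 0.14, limma adjusted p = 7.10e-14). The lowest of these low purity wells, well 4 of day 6, was also the lowest for BMP2 (54.5 against 91.7 to 120.1 TPM), BMP7 (5.19 against 15.2 to 18.9 TPM) and ID3 (60.8 against 90 to 98.9 TPM). Without it the day 6 log2 fold changes of BMP2 and BMP7 were 1.47 and 1.14, and both and ID4 were still called. On day 8 it was 1.81, with 198 ± 0.227 TPM in high purity (n = 3) and 65.9 ± 7.68 TPM in low purity (n = 4). The high purity level then fell to 47.3 ± 1.2 TPM on day 16 (log2 fold change -1.83 from day 8), where the low purity wells had 51.9 ± 2.84 TPM. ID1, ID3 and ID4 thus each had their called excess in high purity between day 6 and day 13, and none of the 4 ID genes was called on day 16.

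BAMBI rose from day 2 to day 4 in both differentiations, by 2.81 in high and 3.59 in low purity on the log2 scale. On day 2 it was at 15.9 ± 2.11 and 21.3 ± 2.31 TPM. On day 4 the high purity wells held 100.4, 131, 131 and 149 TPM and the low purity wells 265, 271, 287 and 289.9 TPM. Low purity was higher without overlap (log2 fold change -1.12, SE 0.08, limma adjusted p = 1.10e-15). High purity wells rose again from day 4 to day 6 (log2 fold change 1.30, to 333 ± 29.5 TPM), and low purity wells were at 267 ± 11.7 TPM (-0.12 from day 4, not called). On day 8 the means were 363 ± 37.3 against 245 ± 24 TPM (log2 fold change 0.80). The order was the opposite on day 16, with 124 ± 11.9 against 205 ± 5.92 TPM (-0.50), and neither difference was called.

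BMPER had the largest step of any member and no called difference between the differentiations on any day in limma; edgeR and DESeq2 on reads called it on day 2, at log2 fold changes of -1.03 and -1.07. It was at 0.157 ± 0.0959 TPM (1 to 8 reads) and 0.272 ± 0.138 TPM (2 to 7 reads) on day 0 and at 1.16 ± 0.181 and 2.53 ± 0.554 TPM on day 2. By day 4 it had risen to wells of 176, 209, 232 and 240.5 TPM in high purity and 269.8, 275, 289.7 and 290.5 TPM in low purity (log2 fold changes 6.54 and 6.28, limma adjusted p = 3.55e-40 and 5.09e-40). It then fell in low purity by day 6 (log2 fold change -1.57, to 98 ± 4.8 TPM), and in high purity the change of -0.57 (to 153 ± 22.6 TPM) was not called. On day 16 it was at 27 ± 1.27 and 21 ± 2.69 TPM. The high purity wells were above the low purity wells without overlap on days 6, 8, 13 and 16, at log2 fold changes of 0.57 to 0.96.

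**Figure D3:**
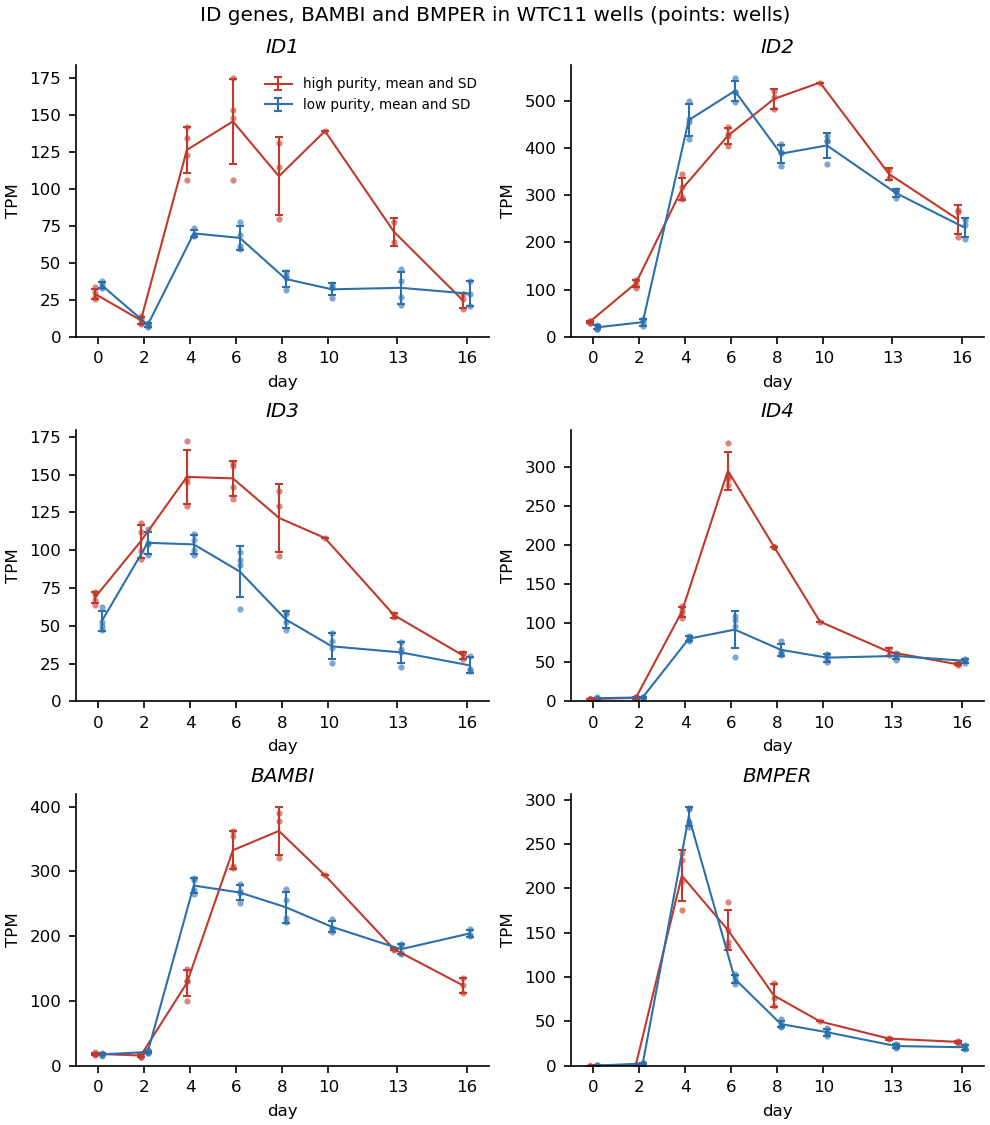
TPM of ID1 to ID4, BAMBI and BMPER (vertical axes, linear) by day (horizontal axes) in high purity (red) and low purity (blue) WTC11 wells; points are wells, and lines join the means with SD bars. ID1, ID3 and ID4 stand higher in red around day 8. On day 16 none of them was called, at red and blue means of 24.5 and 29.1, 30.3 and 23.8, and 47.3 and 51.9 TPM. BAMBI reaches 278 TPM in blue and 128 TPM in red on day 4, and BMPER peaks on day 4 in both.

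Within the differentiations, the members moved most between day 2 and day 4. The steps compared were day 0 with 2, 2 with 4, 4 with 6, 6 with 8 and 8 with 16. In high purity the members called at these steps numbered 6, 8, 3, 2 and 5 of 10, against 16.7%, 13.7%, 7.96%, 5.58% and 11.4% of all genes. In low purity they numbered 6, 8, 1, 1 and 0, against 17.9%, 16.9%, 6.61%, 3.31% and 6.39% of all genes. For the last low purity step 5 members had an unadjusted p under 0.05 in limma, and so had 10149 of all 25664 genes. On reads, edgeR and DESeq2 called 0 members there. Over all genes they called 2835 of 24223 and 2687 of 24403. Members with a called rise from day 2 to day 4 in both were BMP4, BMP5, ID1, ID2, ID4, BAMBI and BMPER. BMP2 rose in both too, with a call in high purity (log2 fold change 3.03). In low purity its rise of 0.76 (91.2 to 161 TPM, limma adjusted p = 8.84e-05) was below the fold threshold. The 5 members called between day 8 and day 16 in high purity all fell: ID1, ID3, ID4, BAMBI and BMPER, by log2 fold changes of -1.89 to -1.30. The change from day 0 differed between the differentiations for 26 of 60 pairs of member and day. Days 2, 4, 6, 8, 13 and 16 had 2, 5, 6, 7, 3 and 3 of them, against 3.22%, 7.01%, 7.17%, 10.3%, 10.5% and 13.4% of all genes. These comparisons use the same wells as those above.

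The other genes of the pathway were taken from a list of 47, of which 43 passed the filter. In the comparison of high with low purity, 0 of the 43 were called on days 0 and 2 and 5 on day 4 (3 with high purity above low). On days 0 and 2, 8 and 21 of them were under an unadjusted p of 0.05 in limma. Of all 25664 genes, 6591 and 11298 were under it on those days. There were 12 on day 6 (6 with high above low), 11 on day 8 (7), 16 on day 13 (7) and 14 on day 16 (5). Over all genes the called share was 1.07% and 5.32% on days 0 and 2 and 7.84% on day 4. It was 8.8%, 12.2%, 10.8% and 13.4% on the later days. Among ligands, GDF7 had the largest differences, with 1.08 ± 0.3 against 32.5 ± 11.8 TPM on day 6 (log2 fold change -3.90) and 0.749 ± 0.146 against 24 ± 3.57 TPM on day 16 (-3.78). GDF6 was higher in low purity on both days too (-2.94 and -2.53). BMP6 was higher in low purity on day 4 (-2.47, 0.927 ± 0.372 against 9.78 ± 1.27 TPM) and BMP10, a ligand of trabecular myocardium, on day 13 (-2.26). All called receptors and co-receptors were higher in high purity: RGMA (1.55) and BMPR1B (1.08) on day 4 are examples, as is ENG, the co-receptor endoglin, on days 6, 8 and 16 (1.48, 2.06 and 1.36). Receptors that were not called went both ways. On day 16 the means in high and low purity were 50.2 and 109 TPM for BMPR2 and 10.4 and 21.1 TPM for ACVR1. For ACVR2B they were 39 and 30.7 TPM. SMAD9, a BMP-activated SMAD, was higher in high purity on day 16 (1.39, 57.9 ± 1.92 against 25.5 ± 5.18 TPM).

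Inhibitors and responsive genes of the list gave a mixed picture. SMAD6 and SMAD7, which block SMAD activation, and the ubiquitin ligases SMURF1 and SMURF2 were not called between high and low purity on any of the 7 days. Of their 28 gene and day pairs, 16 were under an unadjusted p of 0.05 in limma, with log2 fold changes of at most 0.54 in size. Of all 25664 genes, between 6591 (day 0) and 12740 (day 8) were under that p on each day. SMAD6 rose from day 2 to day 4 in both, by 4.51 in high and 4.93 in low purity on the log2 scale, and SMAD7 had fallen from day 0 to day 2 in both (-1.92 and -1.96). Among the genes listed as secreted inhibitors and modulators, SOST was higher in high purity on day 6 (11.6 ± 1.8 against 0.414 ± 0.328 TPM, log2 fold change 3.08) and day 8 (3.73). NOG, the BMP trap noggin, was higher in high purity on day 13 (1.64) and day 16 (1.91). FST on day 13 (-1.83) and CRIM1 on day 16 (-2.39) were higher in low purity. Of the BMP-responsive transcription factors, TBX3 was higher in high purity on day 8 (161 ± 39 against 33.2 ± 9.35 TPM, 2.48). MSX1 was higher in low purity on day 6 (4.88 ± 3.16 against 79.6 ± 18 TPM, -3.89) and day 8 (-2.65).

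Marker genes of other cell types moved on the same days, and their part in these differences was not tested. The summed TPM of 7 cardiomyocyte markers was 72.4 to 105 in high and 1086 to 1244 in low purity wells on day 4, with 5 of 7 called higher in low purity. On day 8 it was 9265 to 10784 against 3223 to 5124, with 6 of 7 called higher in high purity. The 6 fibroblast and stromal markers summed to 401 to 466 in high and 4672 to 5654 in low purity on day 8, and to 496 to 605 against 9583 to 13053 on day 16. All 6 were called higher in low purity on both days. DCN was under 0.5 TPM in every high purity well up to day 8. The 5 epicardial markers summed to 3.63 to 5.2 against 225 to 273 on day 8, with 3 of 5 called, and WT1, TCF21 and UPK3B were under 0.5 TPM in every high purity well of that day. Of 6 endothelial markers 4 were called higher in high and 1 in low purity on day 8, with sums of 134 to 177 against 194 to 224, and PECAM1 was under 0.5 TPM in every low purity well. Of 6 endoderm markers 4 were called higher in high and 1 in low purity on day 8, with sums of 837 to 1601 against 222 to 379. On day 2 the 5 mesendoderm markers summed to 1684 to 2062 in high and 1588 to 1724 in low purity, with 0 called, and the 6 pluripotency markers to 2055 to 2329.8 against 1209 to 1260.0, with 3 of 6 called.

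The 3 lines of the RNA-only experiment give the comparison of high with low purity across differentiations, with 1 library per line, class and stage. No member was called at any of the 4 stages by edgeR's quasi-likelihood test on counts, against 0% of all 23848 genes tested at each stage. Members under an unadjusted p of 0.05 numbered 1, 3, 1 and 1 at stages 1 to 4, and genes of all kinds 354, 1896, 1798 and 2876. DESeq2 called 1 member over the 4 stages, ID2 at stage 2, where it called 77 of 17737 genes. The share of all genes with the same direction in 3 of 3 lines is not given here. A shared direction in 3 of 3 lines below can therefore not be read as particular to the members.

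At stage 2, ID2 was lower in high than in low purity in 3 of 3 lines, which is the opposite of day 2 in the multi-omic wells. Stage 2 was day 2 in WTC11 only and day 3 in H9 and IMR90-4. In the wells the order of ID2 changed between day 2 and day 4. The high and low purity libraries of stage 2 held 31 and 90.5 TPM in H9, 53.8 and 85.7 TPM in IMR90-4, and 51.5 and 155 TPM in WTC11. The log2 fold change was -1.31 (edgeR unadjusted p = 8.35e-05, adjusted p = 0.332). DESeq2 gave -1.30 with an adjusted p of 6.22e-05, and over the other alternatives for ID2 the adjusted p ranged from 0.169 to 1. By stage 3 the levels lay between 155 and 242 TPM in all 6 differentiations.

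BMP4 and BMP2 at stage 2 were also ordered the other way round than in the day 2 wells. Here too H9 and IMR90-4 were sampled on day 3, and the order of BMP2 changed in the wells between day 2 and day 4. BMP4 was higher in high purity in 3 of 3 lines, at 105 and 90.8 TPM in H9, 41.3 and 19.8 TPM in IMR90-4, and 13.8 and 4.75 TPM in WTC11. The difference did not pass (log2 fold change 0.89, edgeR unadjusted p = 0.00278, adjusted p = 0.421). BMP2 was at 40.3 and 8.12 TPM in H9, 86 and 66.4 TPM in IMR90-4, and 11.9 and 4.7 TPM in WTC11, and was not called either (log2 fold change 1.30, adjusted p = 0.711). At stage 3, BMP4 was again higher in high purity in 3 of 3 lines (log2 fold change 0.58, edgeR unadjusted p = 0.0286, adjusted p = 0.622), and in the day 4 wells low purity was higher without overlap. At stage 4, BMP4 had the order of the day 6 wells in 3 of 3 lines, at 31.6 against 52.8 TPM in H9, 55.7 against 61.1 TPM in IMR90-4, and 40.5 against 53.1 TPM in WTC11. Its log2 fold change was -0.43 (adjusted p = 0.482).

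**Figure D4:**
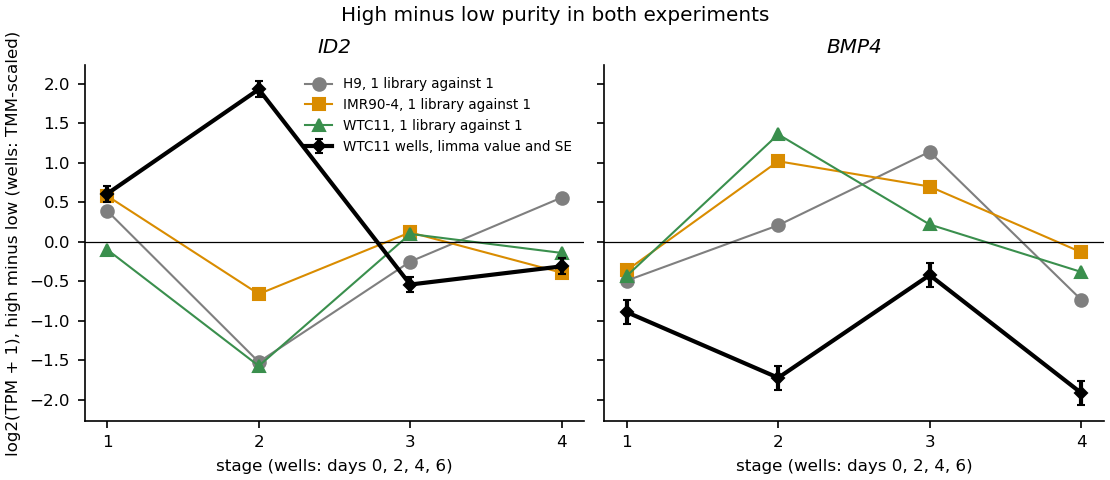
High minus low purity difference in log2(TPM + 1) of ID2 (left) and BMP4 (right) by stage in H9, IMR90-4 and WTC11 of the RNA-only experiment (1 library against 1, no error) and, in black, in the multi-omic WTC11 wells of days 0, 2, 4 and 6 (limma fold change on TMM-scaled values, with SE). At stage 2 the 3 lines lie below 0 for ID2 and above 0 for BMP4, and the wells lie at 1.93 and -1.72. Stage 2 is day 3 in H9 and IMR90-4 and day 2 in WTC11.

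WTC11 at passage 69 was the low purity differentiation of both experiments, which used different library kits (poly(A) and total RNA). Levels are set side by side without a test, and kit and culture cannot be told apart. On day 2 BMP2 was at a mean of 91.2 TPM in the wells and at 4.7 TPM in the RNA-only library, BMP4 at 70.6 and 4.75 TPM, and ID2 at 31.1 and 155 TPM. On day 0 the same genes were at 2.25 and 1.35, 3.2 and 3.66, and 19.9 and 20.3 TPM. The difference in these 3 genes between the libraries of day 2 was thus larger than on day 0, and as a ratio it was larger for each of them than the difference between high and low purity wells on day 2.

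Low purity H9 stood apart for several members at stages 3 and 4. BMPER was at 2.48 TPM there at stage 3, against 121 TPM in high purity H9 and 47.6 to 149 TPM in the other 4 differentiations. BMP7 was at 0.433 against 10.6 TPM and BMP2 at 1.43 against 27.1 TPM, while BMP5 was the higher one, at 34 against 5.56 TPM. At stage 4 low and high purity H9 held 2.09 and 90 TPM of BMPER and 0.752 and 24 TPM of BMP7. BMP2 was at 2.35 and 29.2 TPM there, and ID4 at 29.9 and 162 TPM. In the same 2 H9 differentiations the 5 mesendoderm markers had summed to 20.3 TPM in low and 317 TPM in high purity at stage 2. The 6 fibroblast and stromal markers summed to 673 against 48.5 TPM at stage 3 and 1523 against 103 TPM at stage 4. The 7 cardiomyocyte markers summed to 228 against 21.8 TPM at stage 2, 322 against 88.7 TPM at stage 3 and 343 against 1739 TPM at stage 4. The part of these markers in the result was not tested. Without H9 the log2 fold change of BMPER was 0.80 at stage 3 in place of 2.06, and that of BMP7 at stage 4 was 0.47 in place of 1.65.

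ID4, BAMBI, BMPER and BMP7 were each higher in high than in low purity in 3 of 3 lines at stage 4, at log2 fold changes of 0.98, 0.56, 1.93 and 1.65, none of which was called. In IMR90-4 the pairs were close, at 140.3 and 125 TPM for ID4, 337 and 315 TPM for BAMBI, 100.1 and 86.5 TPM for BMPER and 16.6 and 15.9 TPM for BMP7. ID1 differed in direction between lines at that stage, at 217 and 94.5 TPM in H9, 260.2 and 443 TPM in IMR90-4 and 236 and 302 TPM in WTC11. ID3 did so less widely, at 209 and 73.7, 161 and 121, and 160.4 and 176 TPM in the same order.

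**Figure D5:**
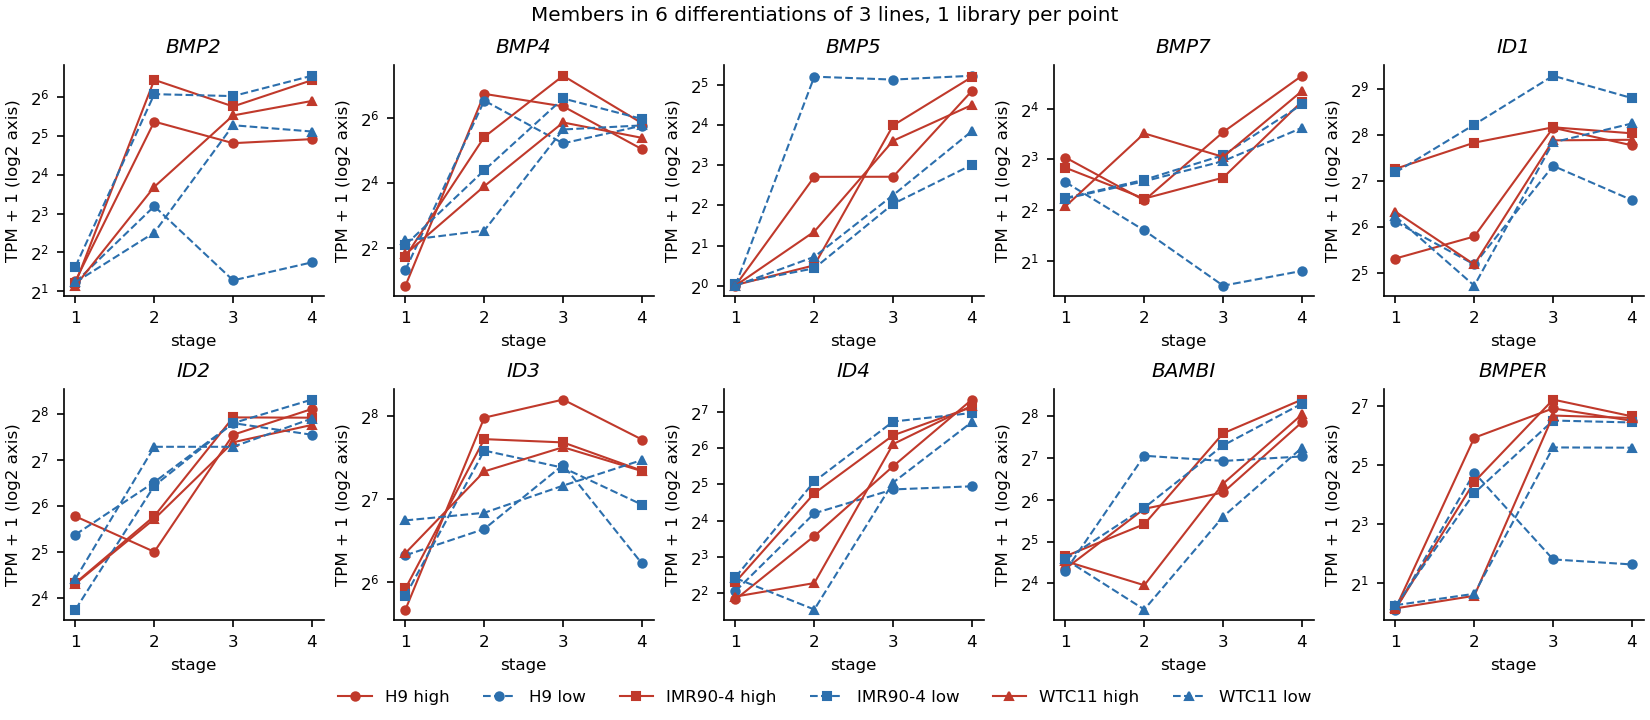
TPM + 1 of the 10 members (vertical axes, log2 scale) by stage (horizontal axes) in 6 differentiations of H9 (circles), IMR90-4 (squares) and WTC11 (triangles), with high purity in red with solid lines and low purity in blue with dashed lines; each point is 1 library. The dashed line with circles, low purity H9, lies lowest for BMP2, BMP7 and BMPER at stages 3 and 4.

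The comparison of stages used each differentiation as its own control. Over all 6 differentiations, 8 of 10 members were called higher at stage 2 than at stage 1, against 25.6% of all genes called in either direction. BMP2 and BMP4 rose in 6 of 6, from medians of 1.35 and 2.39 TPM to 26.1 and 30.6 TPM (log2 fold changes 4.19 and 4.24), and BMP5 rose from 1 to 9 reads per library to a median of 1.1 TPM, with 91 to 7062 reads. BMPER (7.50) and ID3 (1.34) rose in 6 of 6, ID2 (1.67) and ID4 (2.05) went up in 5 of 6, and BAMBI (1.07) in 4 of 6. ID1 and BMP7 were not called (log2 fold changes 0.03 and -0.06) and went up in 3 of 6 differentiations each. ID1 was at 25.3 TPM in low and 35.2 TPM in high purity WTC11 at stage 2, below 73.6 and 79.2 TPM at stage 1, and so went down there as it did in the multi-omic WTC11 wells.

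From stage 2 to stage 3, 4 members were called, all upward, against 6.86% of all genes: ID1 (log2 fold change 1.87), ID2 (1.42), ID4 (2.06) and BAMBI (1.27), of which the first 3 went up in 6 of 6 differentiations. The median went from 44.7 to 259 TPM for ID1 and from 69.8 to 204 TPM for ID2. For ID4 it went from 14.1 to 56.4 TPM and for BAMBI from 47.9 to 102 TPM. From stage 3 to stage 4, 0 members were called, against 3.72% of all genes. In edgeR 5 members were under an unadjusted p of 0.05, and so were 4902 of all 23848 genes. Of the members DESeq2 called BAMBI at this step, and of all genes 1285 of 27118. The counts rest on the choice of lines: over the 3 comparisons, 12 member and step pairs were called with all lines, and between 7 and 16 when 1 line was left out. Without H9, BMP4, BMP5 and BMPER were called from stage 2 to 3 (log2 fold changes 2.25, 3.31 and 4.00). Leaving out H9 also raised the calls over all genes at that step from 1636 to 2509. Without IMR90-4, ID2 and ID4 from stage 2 to 3 were no longer called, at log2 fold changes of 1.25 and 2.42 (edgeR adjusted p = 0.136 and 0.0747), and over all genes the calls at that step fell from 1636 to 225. The calls of ID4 from stage 1 to 2 (1.52) and of BAMBI at both steps (1.09 and 0.95) were lost too. BAMBI from stage 1 to 2 was also lost without H9 (0.27), and from stage 2 to 3 without WTC11 (0.92). Of the 44 other pathway genes tested, 13 rose and 3 fell from stage 1 to 2. The largest rises were those of MSX1 (8.95, SE 1.38), BMP10 (7.14, SE 2.29) and TBX3 (7.04, SE 0.96). Then 8 rose and 3 fell at the next step, and 3 rose at the last. The BMP10 value starts near the floor, with no stage 1 library above 0.0152 TPM, and it rests on H9. At stage 2 low purity H9 reached 10.4 TPM and high purity H9 2.29 TPM. No stage 2 library of IMR90-4 or WTC11 was above 0.0523 TPM.

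Across the 16 groups of the multi-omic experiment, the most similar profiles among the members were those of ID4 and BAMBI, with a Pearson r of 0.96 over group means of log2(TPM + 1). ID4 and BMPER (0.94), ID2 and BAMBI (0.93), BMP5 and ID2 (0.92) and ID2 and ID4 (0.91) came next. ID3 was least like the others, with r from -0.21 to 0.41. These are descriptions over groups that share 2 differentiations and a strong trend over days. Among 15061 other protein-coding genes, the profile most like that of BMP4 was SNAI2 (r = 0.974), which encodes a transcription factor of epithelial-mesenchymal transition. For BMP2 it was FBN2 (0.963), for BMP5 FLNC (0.983) and for BMP7 PROB1 (0.969). ID2 was most like ARRDC3 (0.984), ID4 most like DGKI (0.975) and BMPER most like JCAD (0.982). BAMBI was most like MYL4 (0.982), which encodes an atrial myosin light chain. ID3 was most like GUSB (0.952), and ID1 had the weakest best match, LCP1 (0.897).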

How the data were processed

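RNA abundance was measured in 80 libraries. Per the submitters' processing notes, STAR 2.5.3a, featureCounts 2.0.3 and the build hg38 were used; their roles, the annotation release and the strand setting are not given in the sources used here. The authors deposited read counts per gene, not normalized, and TPM for each experiment. How TPM was computed is not stated.

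The RNA-only counts and TPM gave each gene's length. With it, nonzero multi-omic TPM turned back into whole reads (within 0.05 of a whole number) for 100.0% of values in 37194 genes. For 0 of 56 multi-omic libraries did these reads equal the count column named alike, and for 50 they stood in a count column with a different name. The nearest column was of the same group for 54 of 55 TPM columns and 28 of 55 count columns, so TPM and its names were used there. In the RNA-only experiment, 24 of 24 columns matched, and 36 broken lines of the count table were left out.

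Genes that reached 1 TPM in 3 or more multi-omic libraries were kept. Their TPM was scaled with TMM factors (edgeR 4.0.16), and log2(TPM + 1) was fitted with limma 3.58.1 in R 4.3.3, with 16 group means and 40 residual degrees of freedom. The pseudocount of 1 makes fold changes of low genes too small. RNA-only counts were fitted with edgeR's quasi-likelihood test with TMM, with 12 line-by-stage means and a high minus low term for each of 4 stages (8 residual degrees of freedom), or with 6 differentiations as blocks and 3 stage terms. The cell line pairs the RNA-only libraries. P-values are two-sided and adjusted by Benjamini-Hochberg over all genes tested, and the steps were tested on simulated data. Day 10 had 1 high purity library and was not tested.

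The members, pathway and marker lists and tests were chosen with earlier results of these data known. All members are named; of the pathway list, named genes were among the 3 called genes with the largest fold changes in a direction, apart from the intracellular inhibitors, named for their role. For likeness, the rule names 3 genes and the first is printed. Alternatives were other scaling, pseudocount, filters, tools (DESeq2 1.42.0), blocks and leaving out each library. Proteins are not shown.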

Additional observations from a re-analysis of the deposited data

Results flagged for a closer look

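The change from day 0 differed between the high and low purity WTC11 differentiations, by limma's test of that difference, for 26 pairs of member and day. Each value is the change in high purity minus the change in low purity, on the log2 scale. The groups are single differentiations, so purity, passage and culture cannot be told apart.

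Among ligands, BMP2 had a value of -1.33 on day 2. Its values for days 6, 8, 13 and 16 were 1.62, 1.26, 1.31 and 1.44. BMP4 had -1.02, -1.69 and -2.08 on days 6, 8 and 16, and the first of these lost its call under 11 alternatives, with -0.62 by edgeR and -0.58 by DESeq2 on reads. BMP5 had -1.28 on both day 4 and day 6, which rest on day 0 wells with 0 reads, and on reads neither was called: edgeR gave -1.27 and -1.29 (adjusted p = 1 for each) and DESeq2 -0.48 and -0.51 (adjusted p = 0.873 and 0.865). BMP7 had 1.34, 1.57, 2.21, 1.66 and 1.72 on days 4, 6, 8, 13 and 16.

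Among ID genes, ID1 had 1.16, 1.40, 1.98 and 1.64 on days 4, 6, 8 and 13. ID2 had 1.32 on day 2 and -1.15 on day 4. ID3 had 1.05 on day 8, and ID4 had 2.09 on day 6 and 2.20 on day 8. Of the inhibitors, BAMBI had -1.13 on day 4 and BMPER had 1.11 on day 8.

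By Dixon's test, which divides the gap between an extreme well and its nearest neighbour by the range of the group, 1 of 108 groups of member, class and day passed the critical value at the 95% level. It was ID1 in low purity on day 4, where well 2 had 73.7 TPM against 68.4 to 68.9 TPM in the other 3 wells. About 1 in 20 groups would show such a gap by chance.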

How the results depend on the processing

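Members' values were not compared one by one under the deposited count table's own names. Under the other alternatives no called value reversed its direction. Of 4650 values 71 changed sign, all uncalled in both fits. With the adjusted p alone and no fold threshold, calls rose from 27 to 56 between high and low purity by day, from 24 to 41 and from 16 to 34 between days in high and low purity, and from 26 to 44 for the change from day 0. How far the calls over all genes rose without the fold threshold was not counted. These rises can therefore not be read as particular to the members. The deposited multi-omic count table under its own column names gave 6 calls by day with edgeR in place of 27, 33.3% of them higher in high purity in place of 66.7%. DESeq2 gave 1 call between high and low purity in the 3 lines in place of 0. Leaving out 1 well at a time gave 26 to 28 calls by day, 24 to 25 and 16 to 18 between days, and 25 to 26 for the change from day 0; leaving out 1 line gave 0 between classes and 7 to 16 between stages (12 in all), with 7 reached without IMR90-4. The difference in the change of BMP4 from day 0 to day 6 (-1.02) fell short of the threshold under 11 alternatives, among them edgeR (-0.62) and DESeq2 (-0.58) on reads. Without TMM scaling the differences in change on day 8 were 0.99 for BMP2, 0.76 for ID3 and 0.86 for BMPER, and these calls were lost.

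Same-numbered wells of the 2 differentiations did not deviate together (correlations of -0.013 to 0.032), so they share only a number. With the well number as a replicate block, 26 pairs were called by day in place of 27, since ID3 on day 13 came to 0.95. Without the block for the cell line, calls between stages numbered 10 in place of 12, with ID1 (1.44) and BAMBI (1.17) from stage 2 to 3 lost, and calls between classes 0. Depth limits BMP5 and BMPER on day 0, where wells held at most 8 reads.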
